A study of Saccharomyces cerevisiae with 6 samples.

Results

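The DNA around the 16 centromeres of budding yeast was followed in S phase, using the windows of 1 kb that start within 20 kb of a centromere on either side. The position of each centromere was taken to the nearest kb, so the choice of windows used no measured value. Of the 12070 windows of the genome that do not overlap, 640 were chosen this way, 40 for each centromere. Both strains are labelled W303, by the study's methods they derive from W1588-4C, which differs from W303 at *RAD5*, and both carry Pol2, the catalytic subunit of DNA polymerase ε, with a 3HA tag and the KAN marker. The wild type (WT, Pol2-3HA::KAN) was compared with *pol2-REL* (pol2-REL-3HA::KAN), which has substitutions in a domain at the edge of the catalytic core. Cells grown in YPD at 24 °C were arrested in G1 with alpha-factor and released into S phase with Pronase, and genomic DNA was sequenced from G1 cells and from cells at 30 and 40 min. The 6 conditions had 1 library each, and each genotype was a single strain isolate, so no p-values are given and no difference has a replicate check.

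A yeast centromere is a short defined stretch of DNA that holds a specialised nucleosome and carries the kinetochore, which attaches the chromosome to the spindle. In budding yeast centromeres are known to be copied early in S phase. The kinetochore of this yeast is known to recruit the kinase DDK, which activates licensed origins, and origins close to a centromere fire earlier than they do elsewhere. Pol ε takes part both in assembling the replisome at an origin and in synthesising the leading strand. No sequence of the genome build used, SacCer2, was at hand, so the centromere DNA is not printed.

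The measure used was relative copy number, the S phase reads of a window divided by its G1 reads and scaled by the authors to a mean of 1 on each chromosome. A locus that has been copied in more of the cells has a higher value. For each centromere the mean of the 4 windows within 2 kb, called the core, was divided by the mean of all windows of the same chromosome over 20 kb away, and this quotient is called the level. A level of 1 means that the core was neither ahead of nor behind the rest of its chromosome. Because every chromosome has a mean of 1, a level cannot show how much DNA a culture had made. Intervals are 95% intervals from Poisson counting error and assume independent reads. They cover no difference between cultures.

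Of the 640 windows, 615 had a value in all 4 S phase profiles, among them all 64 core windows. The 25 without a value lie in runs on 4 chromosomes. There are 6 on chromosome I from 160001 to 166000, 6 on chromosome II from 221001 to 227000, 6 on chromosome VI from 138001 to 144000 and 7 on chromosome VIII between 86001 and 95000. They held at most 1303 reads in WT G1 and 523 in *pol2-REL* G1. The libraries held between 19156804 and 40161464 reads, and the median window around the centromeres held 1629 reads in *pol2-REL* G1 and 3322 in WT at 30 min. A single such window has a counting error of 2.48% and 1.74%. A core held between 5875 and 17392 reads in a library.

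At 30 min the centromeres were on average close to the level of their chromosomes in both genotypes, and at 40 min they stood above it, further in WT than in *pol2-REL*. In WT at 30 min the mean level over the 16 centromeres was 0.989 (95% interval 0.983 to 0.995, SD over centromeres 0.104). At 40 min it was 1.31 (1.30 to 1.32, SD 0.155). In *pol2-REL* it was 0.993 at 30 min (0.985 to 1.00, SD 0.0745) and 1.13 at 40 min (1.12 to 1.14, SD 0.132). All 16 centromeres were above 1 in WT at 40 min, each beyond its interval. In *pol2-REL* at 40 min 14 were above 1, 12 of them beyond the interval, and 2 were below it.

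The value at 30 min rested on what the centromeres were compared with. Against the windows 20 to 100 kb from the centromere on the same chromosome, in place of the whole of the rest, the mean level was 1.03 in WT and 1.05 in *pol2-REL* at 30 min, and 1.29 and 1.17 at 40 min. With all windows within 20 kb in place of the core, the WT mean at 30 min was 1.01. Both settings thus put the mean of the WT centromeres above 1 at 30 min, and the first did so for *pol2-REL* as well. With all windows within 20 kb, however, 7 WT centromeres were above 1 at 30 min and 9 below, with a median of 0.996.

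**Figure D1:**
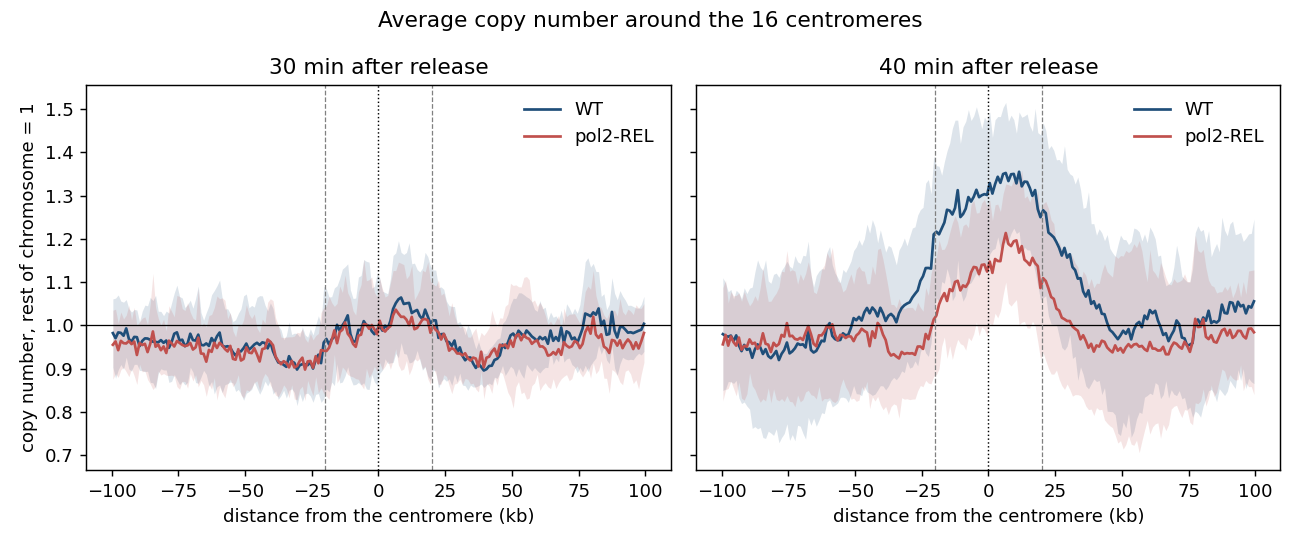
Copy number averaged over the 16 centromeres against distance in kb, at 30 min (left) and 40 min (right), with the mean of the windows over 20 kb from the centromere set to 1 on each chromosome. Lines are means over centromeres in WT (blue) and *pol2-REL* (red), bands are 1 SD over centromeres, and dashed lines mark 20 kb. At 40 min both genotypes show a broad hill, which reaches 1.35 in WT and 1.21 in *pol2-REL*.

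The average profile at 40 min was a broad hill and not a narrow peak. In WT the windows within 5 kb averaged 1.31, those at 10 to 15 kb 1.30 and those at 15 to 20 kb 1.26. Beyond the chosen windows it went on declining, to 1.15 at 20 to 30 kb, 1.04 at 30 to 50 kb and 0.978 at 50 to 75 kb. The mean profile first lost 50% of the core's excess over 1 at a distance of 25.5 kb and first went below 1 at 47.5 kb.

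In *pol2-REL* the hill was lower and narrower. The windows within 5 kb averaged 1.14, those at 5 to 10 kb 1.15, those at 15 to 20 kb 1.09 and those at 20 to 30 kb 1.01. Its profile first lost 50% of the core's excess at 19.5 kb and first went below 1 at 25.5 kb. At 30 to 50 kb it stood at 0.962, where WT stood at 1.04.

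At 30 min the centromeres lay on a low rise between 2 troughs. In WT the windows within 5 kb averaged 0.994 and those at 30 to 50 kb 0.930, and in *pol2-REL* these values were 0.994 and 0.931. At 30 to 50 kb 0 of the 16 centromeres were above 1 in either genotype at this time.

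The highest point of the average within 20 kb was 6.5 kb or more to the right of the centromere in all 4 profiles. At 30 min it was 1.06 at 8.5 kb to the right in WT and 1.04 at 6.5 kb to the right in *pol2-REL*. At 40 min it was 1.35 at 11.5 kb and 1.21 at 6.5 kb, also to the right. Right here means towards higher coordinates. The exact place is not resolved, since in WT at 40 min the mean was also 1.35 at 6.5 kb, with an SD over centromeres of 0.163.

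Single windows gave the same contrast between the times. A window was counted as high at 1.1 times its chromosome's mean or more, and as low at the mean divided by 1.1 or less. In WT at 40 min 535 of the 615 windows around centromeres (87.0%) were high, against 26.7% of all 11507 windows tested, and 7 were low (1.14%, against 37.1%). Of these 7, 6 lie beside CEN8 and 1 beside CEN9. At CEN4, CEN5, CEN6, CEN10 and CEN11 every window with a value was high. In *pol2-REL* at 40 min 332 were high (54.0%, against 18.3%) and 38 were low (6.18%, against 25.2%).

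At 30 min high and low windows were about equally frequent around the centromeres. In WT 136 were high (22.1%, against 11.4%) and 136 were low (22.1%, against 15.1%). With G1 of *pol2-REL* as the divisor for WT, 105 were high (17.1%, against 14.5%), which is closer to the genome. In *pol2-REL* 95 were high (15.4%, against 12.6%) and 113 were low (18.4%, against 15.2%), both near the shares of the genome. Their median was 0.992 in WT and 0.972 in *pol2-REL*, beside 0.997 and 0.992 over all windows.

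**Figure D2:**
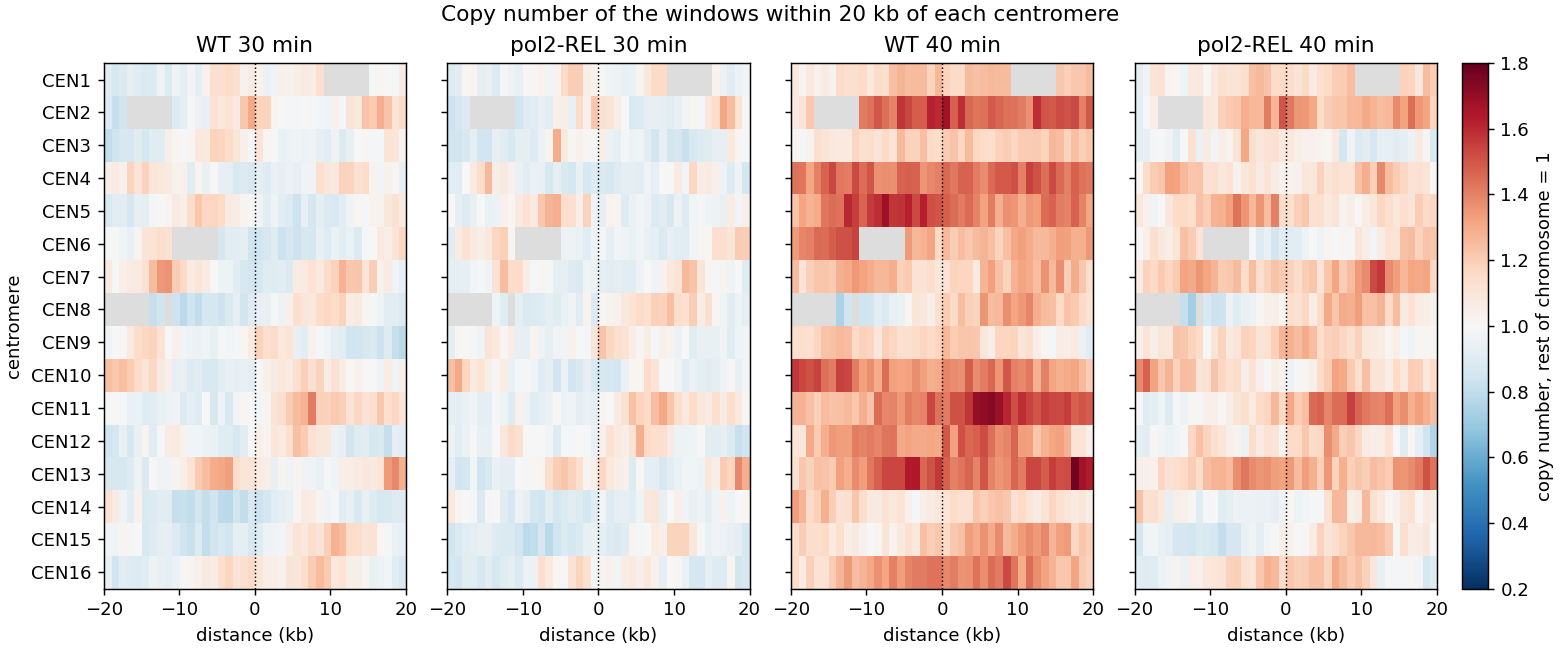
Copy number of the windows within 20 kb of each centromere in the 4 S phase profiles, with 1 row for each centromere and distance in kb along the horizontal axis. Red is above and blue below the mean of the rest of the chromosome, which is 1, and grey windows have no value. At 30 min red and blue patches are mixed, and in WT at 40 min nearly the whole field is red except to the left of CEN8.

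The centromere was seldom the highest point of its own surroundings. In the authors' smoothed profile the highest window within 20 kb was a median of 11.5 kb from the centromere in WT at 30 min and 11 kb at 40 min, and 9 kb away in *pol2-REL* at both times. It was within 5 kb at 2 of the 16 centromeres in WT at either time, and at 4 in *pol2-REL*. At up to 5 centromeres it was over 15 kb away, where the maximum may lie outside the region. Between the genotypes it was within 2 kb at 10 centromeres at 30 min and at 10 at 40 min. Over the 4 profiles together it moved by over 10 kb at 10 centromeres and by at most 2 kb at 6.

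CEN7 lay in a dip between 2 high points. In WT at 30 min its smoothed profile was at 1.19 at 11.5 kb to the left, 0.886 at the centromere and 1.18 at 11.5 kb to the right. In *pol2-REL* at the same time it was at 1.08, 0.911 and 1.1 at these places. By 40 min the dip was shallower in WT, with 1.28 on the left, 1.13 at the centromere and 1.28 on the right. In *pol2-REL* at 40 min it was at 1.26, 1.16 and 1.37. The high points of the 4 profiles were 10.5 to 11.5 kb to the left and 11.5 to 13.5 kb to the right.

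CEN4 had the same form at 30 min, and the genotypes differed there at 40 min. In WT at 30 min the smoothed profile was at 1.1 on the left, 0.90 at the centromere and 1.1 on the right. At 40 min it was 1.43, 1.41 and 1.47, so the dip was nearly level. In *pol2-REL* it was 1.06, 0.886 and 1.04 at 30 min and 1.22, 1.06 and 1.21 at 40 min, so the dip was still there.

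The height of the core over its shoulders, the windows 15 to 20 kb away, was small on average. The core divided by the shoulders averaged 0.997 in WT at 30 min (95% interval 0.989 to 1.00) and 1.04 at 40 min (1.03 to 1.05). In *pol2-REL* it averaged 1.01 at 30 min (1.00 to 1.02) and 1.04 at 40 min (1.03 to 1.05). With shoulders at 10 to 15 kb the mean heights, which are this quotient less 1, were 0.0084 or less in every profile. The average hides opposite cases. At CEN16 the height was between 0.166 and 0.280 in the 4 profiles, and at CEN6 it was between -0.216 and -0.0933. CEN16 thus lay on a local high and CEN6 in a local low throughout.

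Left and right differed at most centromeres. In WT at 40 min the right side was higher beyond its interval at 9 centromeres and the left side at 4. In *pol2-REL* at 40 min these counts were 11 and 3. At 30 min they were 9 and 3 in WT and 7 and 4 in *pol2-REL*. CEN8, CEN11 and CEN15 had the largest excess on the right. The right over the left side of CEN8 was 1.22 and 1.31 in WT at 30 and 40 min, and 1.17 and 1.28 in *pol2-REL*. For CEN11 these quotients were 1.23, 1.18, 1.19 and 1.32. CEN5 was higher on the left in all 4 profiles, with quotients between 0.905 and 0.933. The left side of CEN8 has 13 of 20 windows.

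The centromeres differed among themselves by more than counting error. The median counting error of a level was 0.0178 in WT at 40 min, where the SD over centromeres was 0.155 and the levels ran from 1.1 to 1.59. In order they were CEN2, CEN13, CEN5, CEN11, CEN16, CEN4, CEN12, CEN10, CEN6, CEN9, CEN15, CEN1, CEN3, CEN8, CEN7 and CEN14. Of the 15 pairs of neighbours in this order only 4 were apart beyond the interval of their difference. These were CEN2 and CEN13, CEN4 and CEN12, CEN10 and CEN6, and CEN3 and CEN8. In *pol2-REL* at 30 min 0 of the 15 pairs were apart.

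**Figure D3:**
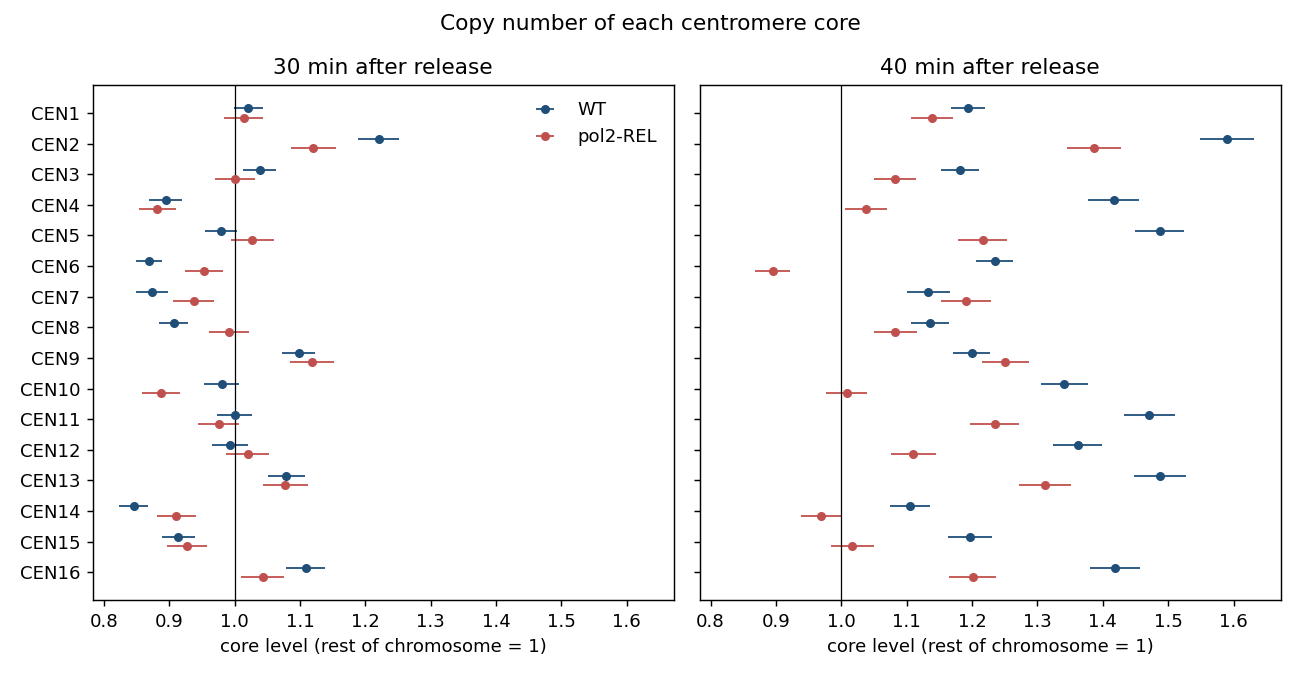
Level of each centromere core, with the rest of its chromosome set to 1, at 30 min (left) and 40 min (right) in WT (blue) and *pol2-REL* (red). Bars are 95% intervals from counting error. At 40 min all 16 WT points lie to the right of 1, and the *pol2-REL* point lies to the left of the WT point at 14 centromeres.

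The centromere with the highest level in all 4 profiles, by a margin within counting error in *pol2-REL* at 30 min, was CEN2, on chromosome II, with windows from 218001 to 258000 (SacCer2). By the arm letters of the gene names it lies between ECM15 (YBL001C) and NTH2 (YBR001C), which encodes a neutral trehalase. Its level was 1.22 in WT at 30 min and 1.59 at 40 min, and 1.12 and 1.39 in *pol2-REL*. In WT at 40 min none of the windows of the rest of the chromosome was above its core, since 100% of them were lower. Reads in the core over the rest, without division by G1, were 0.912 in WT G1, 1.12 at 30 min and 1.46 at 40 min, and 0.966, 1.08 and 1.34 in *pol2-REL*. CEN2 was thus already ahead of its chromosome at 30 min in both genotypes.

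CEN13 was next by the mean of the 4 levels. It lies between YPT7, which encodes a small GTPase of vacuole fusion, and CDC5, which encodes the polo kinase of mitosis. Its level was 1.08 at 30 min in both genotypes, and at 40 min it was 1.49 in WT and 1.31 in *pol2-REL*. The highest window of the whole set in WT at 40 min was 17.5 kb to the right of it, at 285001 to 286000 on chromosome XIII, with a relative copy number of 1.73.

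CEN16, which follows by that mean, lies between HAT1, a histone acetyltransferase gene, and CIT3, a citrate synthase gene. Its level was 1.1 and 1.42 in WT and 1.04 and 1.2 in *pol2-REL*, at 30 and 40 min. It was above 1 beyond the interval in all 4 profiles, as were CEN2, CEN9 and CEN13.

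The lowest centromere by the mean of the 4 levels was CEN14, between DOM34, a gene of ribosome rescue, and CIT1, the gene of mitochondrial citrate synthase. Its level was 0.846 and 1.1 in WT and 0.911 and 0.969 in *pol2-REL*. Around it 24 of 40 windows were high in WT at 40 min and 9 of 40 in *pol2-REL*, where 26.7% and 18.3% of all windows were high. The count in *pol2-REL* was thus near the share of the genome. The core of CEN14 was thus just below its chromosome in *pol2-REL* at 40 min (95% interval 0.939 to 0.999), while over all 40 of its windows the level was 1.04.

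CEN6 was the lowest in *pol2-REL* at 40 min. It lies between DEG1, which encodes a tRNA pseudouridine synthase, and LOC1. Its level was 0.869 in WT at 30 min and 1.23 at 40 min, and 0.954 and 0.895 in *pol2-REL*. Of the windows in the rest of chromosome VI, 88.6% were below its core in WT at 40 min and 23.2% in *pol2-REL*. Over all of its 34 windows within 20 kb the *pol2-REL* level at 40 min was 1.05, so the low value was that of the core and not of the whole region. The 6 windows without a value around CEN6 begin 5.5 kb to the left of it.

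CEN15, between PHO80, the gene of a cyclin of phosphate signalling, and RRP6, a gene of the nuclear exosome, was low in both genotypes at 30 min. Its level was 0.914 in WT and 0.927 in *pol2-REL*, and at 40 min 1.2 and 1.02.

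The 40 min level was above the 30 min level at all 16 WT centromeres and at 15 of the 16 in *pol2-REL*, each beyond its interval. Both times of a genotype share a G1 library, which nearly cancels in this quotient, so its intervals hold the counting errors of the S phase libraries alone. With G1 of *pol2-REL* or the sum of both G1 libraries, the mean WT quotient was 1.33 as well. The mean quotient was 1.33 in WT (95% interval 1.32 to 1.34, SD over centromeres 0.133) and 1.14 in *pol2-REL* (1.13 to 1.15, SD 0.0853). It was largest in WT at CEN4, at 1.58, and at CEN5, at 1.52, and it was smallest at CEN9, at 1.09. In *pol2-REL* it was largest at CEN7 and CEN11, at 1.27 for both, and CEN6 was the exception, at 0.938. CEN4 was thus below the rest of its chromosome at 30 min in WT, at 0.895, and at 1.42 at 40 min. CEN5 was at 0.979 at 30 min, within its interval of 1, and at 1.49 at 40 min.

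Single windows showed the same. From 30 to 40 min 567 of the 615 windows had a relative copy number at least 1.1 times higher in WT (92.2%, against 25.4% of all windows) and 1 was lower by this factor (0.163%, against 34.1%). In *pol2-REL* 372 were higher (60.5%, against 16.2%) and 4 were lower (0.650%, against 15.3%).

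**Figure D4:**
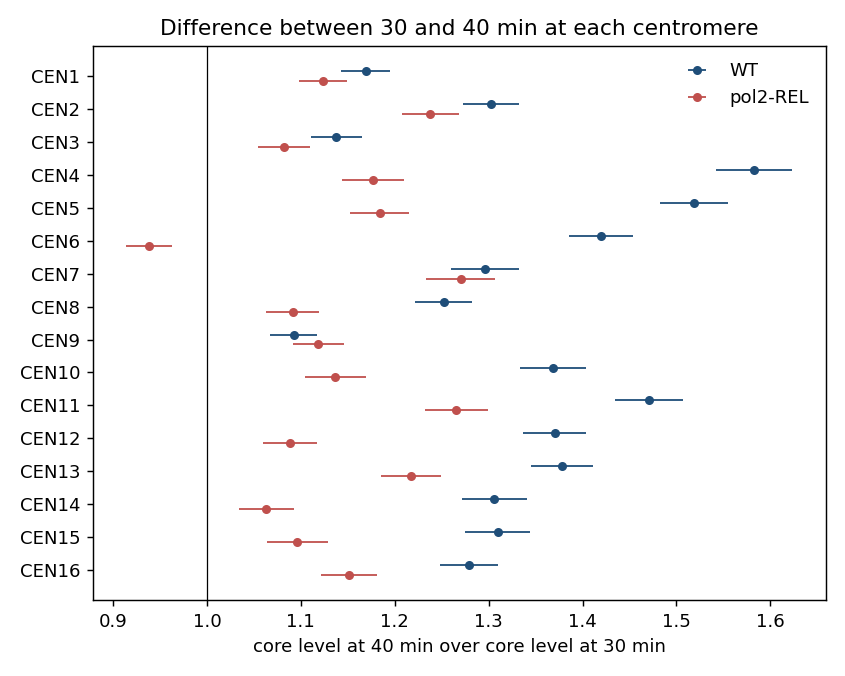
Level of each centromere core at 40 min divided by its level at 30 min, in WT (blue) and *pol2-REL* (red). Bars are 95% intervals from counting error. CEN6 in *pol2-REL* is the 1 point below 1, and the bars of the genotypes overlap at CEN1, CEN7 and CEN9.

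The quotient was smaller in *pol2-REL* than in WT beyond the interval of the comparison at 14 centromeres, and 0 had a larger one by that margin. At CEN7 the *pol2-REL* quotient was 0.980 times that of WT (0.941 to 1.02) and at CEN9 it was 1.02 times (0.990 to 1.06). With the own G1 library of each genotype as divisor, these 2 centromeres were also the ones at which *pol2-REL* was not below WT at 40 min. The largest gap was at CEN6, where the *pol2-REL* quotient was 0.661 times that of WT, followed by CEN4 at 0.744 and CEN5 at 0.780.

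Compared at the same time, the genotypes differed at the centromeres at 40 min. By the paper, *pol2-REL* cells enter S phase and pass through it more slowly, so equal times need not be equal stages. Over all windows at 40 min, 18.3% were high and 25.2% low in *pol2-REL*, and 26.7% and 37.1% in WT. Whether the difference is particular to centromeres was not tested. The level of *pol2-REL* over that of WT averaged 1.01 at 30 min (95% interval 0.998 to 1.02, SD over centromeres 0.0597) and 0.870 at 40 min (0.862 to 0.879, SD 0.0968). At 30 min it was above 1 at 8 centromeres, 5 of them beyond the interval, and below it at 8, 3 of them beyond the interval. At 40 min it was below 1 at 14 and above it at 2, all beyond their intervals. With G1 of *pol2-REL* or the sum of both G1 libraries as divisor for both genotypes, it was below 1 at 15.

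At 40 min the lowest were CEN6 at 0.725 and CEN4, between RMD1 and the trehalase gene NTH1, at 0.733 (0.702 to 0.763). The highest were CEN7, between ERG26, a gene of ergosterol synthesis, and EFM5, at 1.05 (1.01 to 1.1), and CEN9, between YIL001W and SGN1, at 1.04 (1.00 to 1.08). The WT level of CEN7 was 0.874 at 30 min and 1.13 at 40 min, and that of *pol2-REL* was 0.937 and 1.19. CEN9 was at 1.1 and 1.2 in WT and at 1.12 and 1.25 in *pol2-REL*. Without division by G1, reads in its core over the rest at 40 min were 1.24 in WT and 1.22 in *pol2-REL*. In G1 they were 1.04 and 0.985, so on reads alone *pol2-REL* was not above WT at CEN9. CEN9 had the smallest difference between the times in WT and stood behind CEN2 and CEN13 alone in *pol2-REL* at 40 min.

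At 30 min the highest were CEN6 at 1.1 (1.06 to 1.14) and CEN8, between RPL14B, a ribosomal protein gene, and OSH7, at 1.09 (1.05 to 1.14). The lowest were CEN10, between the proteasome gene PRE3 and AVT1, at 0.905 (0.867 to 0.943), and CEN2 at 0.918 (0.881 to 0.955). On reads without division by G1 the genotypes were closer at CEN2, CEN8 and CEN10, and further apart at CEN6. In WT and *pol2-REL* these reads were at 1.12 and 1.08 at CEN2 and 0.920 and 0.954 at CEN8. They were at 0.872 and 0.859 at CEN10 and 0.797 and 0.905 at CEN6. In G1 the reads at CEN10 were at 0.888 in WT and 0.969 in *pol2-REL*. CEN10 was low in *pol2-REL* at both times, with levels of 0.887 and 1.01 beside 0.980 and 1.34 in WT.

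In single windows at 40 min *pol2-REL* was lower than WT by the factor of 1.1 in 383 of 615 (62.3%, against 24.9% of all windows) and higher in 5 (0.813%, against 28.6%). At 30 min it was lower in 72 (11.7%, against 15.3%) and higher in 55 (8.94%, against 15.3%). The median quotient of *pol2-REL* over WT was 0.877 around the centromeres at 40 min and 1.00 over all windows. At 30 min these medians were 0.984 and 0.993.

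The order of the centromeres was similar in both genotypes at 30 min and less so at 40 min. Over the 16 centromeres Spearman's rho between the levels of WT and *pol2-REL* was 0.800 at 30 min and 0.582 at 40 min. These values share no library, but the 16 points share the same positions and reference build, and they are given as a description.

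The G1 libraries were not level around the centromeres. Reads in the core over the rest of the chromosome averaged 0.936 in WT G1 (SD over centromeres 0.0460) and 0.952 in *pol2-REL* G1 (SD 0.0281), and a level is divided by them. Without that division the quotient was 0.928 at 30 min and 1.23 at 40 min in WT, and 0.946 and 1.08 in *pol2-REL*. On reads alone all 16 WT centromeres were above 1 at 40 min and 12 in *pol2-REL*. The WT G1 library was also uneven between chromosomes. Its core reads ran from 8444 at CEN4 to 17148 at CEN1, while those of *pol2-REL* G1 ran from 5875 to 6877. A level compares windows of 1 chromosome only, and what this unevenness did to the levels was not tested. The part of the G1 libraries in the differences between genotypes was not tested.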

How the data were processed

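Whole-genome sequencing of 6 yeast libraries was analysed, 1 for each genotype and time. The authors mapped paired-end reads to S288c (SacCer2), although the strains are W303, and deposited read counts of 1000 bp windows that start every 500 bp, after excluding repetitive sequences. Their processing notes name cutadapt, BWA 0.7.8 and Picard 1.110. Whether duplicates were removed is not stated in the sources read here. For S phase libraries the authors also deposited the ratio to the G1 count, this ratio scaled so that every chromosome averages 1, and its smoothed version. The listed ratios equal the count ratios within 0.0005. If both reads of a pair were counted, true counting errors are larger than those given.

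From these files, windows that start at 1 modulo 1000 were used where all 4 profiles had a value, and 2 windows whose G1 count exceeded 5 times the median were dropped. Levels are means of the scaled ratio. Their errors follow from Poisson errors of the counts by the delta method. Conditions came from the sample titles. Neighbouring genes were taken from the arm letter and order of locus tags in RefSeq (R64), of which no coordinates were used. The named centromeres are all 16, with detail for the 3 highest and 3 lowest by the mean of 4 levels and the 2 with the largest gain and loss in *pol2-REL* at each time. CEN5, CEN11 and others named for a profile, an arm or a time were chosen after their values were seen. The members and measures were chosen with earlier results of these data known. The software was matplotlib 3.10.9, SciPy 1.17.1, pandas 2.3.3 and numpy 2.4.6 under Python 3.11.15.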

Additional observations from a re-analysis of the deposited data

Results flagged for a closer look

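CEN6 was on opposite sides in the 2 genotypes between 30 and 40 min, with a quotient of 1.42 in WT and 0.938 in *pol2-REL*. At 4 centromeres *pol2-REL* was above WT at 30 min and below it at 40 min, both beyond counting error. The quotients at 30 and 40 min were 1.05 and 0.818 at CEN5, 1.1 and 0.725 at CEN6, 1.09 and 0.954 at CEN8, and 1.08 and 0.877 at CEN14. The excess at 30 min depends in size on the G1 libraries. On reads without division by G1, WT and *pol2-REL* at 30 min were at 0.941 and 0.958 at CEN5 and 0.797 and 0.905 at CEN6. They were at 0.920 and 0.954 at CEN8 and 0.833 and 0.880 at CEN14. No intervals were made for these. With 1 library per condition these differences were not tested between cultures.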

How the results depend on the processing

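With 1 library per condition no replicate could be left out. Across the alternatives, 88 values stayed within the 95% interval of the value reported, or within 1.5 times a count, 32 moved further and 2 reversed. With G1 of *pol2-REL* as the divisor throughout, the WT levels were 0.974 at 30 min and 1.29 at 40 min, the quotients of *pol2-REL* over WT 1.02 and 0.880, and the WT heights 0.0074 and 0.0507. With the sum of both G1 libraries the *pol2-REL* levels were 1.00 and 1.14 and the quotients 1.02 and 0.881. Against windows within 100 kb, the levels at 30 and 40 min were 1.03 (reversed) and 1.29 in WT and 1.05 and 1.17 in *pol2-REL*, the quotients between genotypes 1.02 and 0.911, and the quotients of 40 over 30 min 1.25 and 1.1. With all windows within 20 kb, WT was at 1.01 (reversed) and 1.30, the quotient between genotypes at 30 min was 0.989 and the WT quotient of 40 over 30 min 1.29. Medians over centromeres in place of means gave 1.29 and 1.12 at 40 min, 0.861 between genotypes, and 1.31 and 1.13 between times. Shoulders at 10 to 15 kb gave heights of -0.0219 and 0.0084 in WT and 0.0036 and 0.0077 in *pol2-REL*. A factor of 1.2 left 38 high windows in WT (6.18%, against 2.46% of all windows) and 25 in *pol2-REL* (4.07%, against 2.89%) at 30 min. At 40 min it left 400 in WT (65%, against 14.9%) and 177 in *pol2-REL* (28.8%, against 8.8%). Over the alternatives for levels, all 16 WT centromeres and 14 to 16 in *pol2-REL* were above 1 at 40 min, and *pol2-REL* was below WT there at 14 or 15.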
